A study of Mus musculus with 6 samples.

Results

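The cell cycle and proliferation genes are a set of 39 mouse genes whose products carry a cell from G1 through DNA replication to mitosis. They were taken as the rows of the deposited expression table whose gene symbol equals a listed name, and all 39 were found among its 43383 rows. By role, 14 act on entry into the cycle in G1, 10 on DNA replication in S phase, and 15 in G2 and mitosis. Their levels were compared between upper-layer astrocytes (ULAs) and deep-layer astrocytes (DLAs).

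Both groups were GFP-positive cells sorted by flow cytometry from the somatosensory cortex of male Aldh1l1-eGFP mice aged 4 weeks, with no treatment named. In this line eGFP is driven from the gene for the folate enzyme Aldh1l1, which marks astrocytes, and both layers carry the same transgene. ULAs and DLAs came from the separately dissected layers of 3 brains, which gave 3 libraries per layer and 6 in all, and 1 ULA and 1 DLA library with the same replicate number were taken as 1 brain. The libraries do not cover every cortical astrocyte, since layer I, the white matter below the cortex and a strip between the dissected layers were left out.

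The cell cycle is driven by cyclin-dependent kinases that are active only when bound to a cyclin. In G1 the D-type cyclins with Cdk4 or Cdk6, and then the E-type cyclins with Cdk2, phosphorylate the retinoblastoma family (Rb1, Rbl1, Rbl2), which releases E2F factors to switch on the replication genes, while the inhibitors Cdkn2c (p18-INK4c) and Cdkn1b (p27-KIP1) hold these kinases back. Mitotic genes are switched on later, largely through CCAAT boxes bound by the factor NF-Y and through the cell cycle homology region (CHR), at which the DREAM and MuvB complexes bind. Cortical astrocytes divide mostly in the early postnatal weeks and rarely in the healthy adult.

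Sequence just upstream of the start was available for 32 of the 39 genes, as 35 promoters of 250 bases from RefSeq on GRCm38.p6, another build than that of the expression table. Those of Ccnd1, Ccnd2, Ccne2, Rb1, Mcm4, Ccna2 and Aurkb were not analysed here. The 3 mitotic genes most used to mark dividing cells are shown first, each ending at the base before the start: Mki67 (chr7:135716380-135716629, minus strand), Cdk1 (chr10:69352913-69353162, minus strand) and Top2a (chr11:99024190-99024439, minus strand). They are shown because their RNA was at or near 0 in every library and because each holds both a CCAAT box and a CHR core. Capitals mark matches, on either strand, to the CCAAT box, to the CHR core TTTGAA, or to an E2F core, which was taken as TTCCCGC, or alternatively TTGGCGC, or else TTCGCGC, or finally TTGCCGC.
Mki67: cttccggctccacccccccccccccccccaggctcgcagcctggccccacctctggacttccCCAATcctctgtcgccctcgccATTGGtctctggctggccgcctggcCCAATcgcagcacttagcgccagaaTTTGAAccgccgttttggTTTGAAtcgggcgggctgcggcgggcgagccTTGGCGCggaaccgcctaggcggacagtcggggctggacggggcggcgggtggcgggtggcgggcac
Cdk1: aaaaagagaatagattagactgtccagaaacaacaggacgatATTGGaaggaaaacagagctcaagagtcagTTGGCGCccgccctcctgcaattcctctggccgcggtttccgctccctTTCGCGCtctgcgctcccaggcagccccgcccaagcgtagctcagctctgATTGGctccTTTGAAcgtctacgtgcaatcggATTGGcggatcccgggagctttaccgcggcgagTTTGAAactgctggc
Top2a: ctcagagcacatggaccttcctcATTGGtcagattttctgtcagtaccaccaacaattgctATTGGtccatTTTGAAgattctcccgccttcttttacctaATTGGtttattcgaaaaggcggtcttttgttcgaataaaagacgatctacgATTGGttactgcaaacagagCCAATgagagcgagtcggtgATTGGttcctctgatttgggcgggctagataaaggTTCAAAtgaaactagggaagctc
For contrast, the next lines give Rrm1 (chr7:102441445-102441694, plus strand), a replication gene that was expressed, Cdk4 (chr10:127063285-127063534, plus strand), the gene of highest level, and the upstream start of Cdkn2c (chr4:109666757-109667006, minus strand), the gene with the largest difference between the layers.
Rrm1: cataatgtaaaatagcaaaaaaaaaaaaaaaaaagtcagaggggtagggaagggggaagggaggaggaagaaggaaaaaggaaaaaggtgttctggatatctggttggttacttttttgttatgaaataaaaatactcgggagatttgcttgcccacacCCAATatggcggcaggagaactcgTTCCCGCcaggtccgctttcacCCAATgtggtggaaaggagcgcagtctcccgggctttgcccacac
Cdk4: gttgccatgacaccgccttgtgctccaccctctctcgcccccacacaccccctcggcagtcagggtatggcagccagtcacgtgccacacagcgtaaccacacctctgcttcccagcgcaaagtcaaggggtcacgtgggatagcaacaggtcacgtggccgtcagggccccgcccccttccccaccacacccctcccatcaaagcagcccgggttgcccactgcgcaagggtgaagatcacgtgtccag
Cdkn2c: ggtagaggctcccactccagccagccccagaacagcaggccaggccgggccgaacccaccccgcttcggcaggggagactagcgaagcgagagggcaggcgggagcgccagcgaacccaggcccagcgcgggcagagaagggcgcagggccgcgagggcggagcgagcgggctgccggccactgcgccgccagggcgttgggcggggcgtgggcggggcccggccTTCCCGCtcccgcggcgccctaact
Mki67 and Cdk1 each held 3 CCAAT boxes and 2 CHR cores, with 1 E2F core in Mki67 and 2 in Cdk1, and Top2a held 6 CCAAT boxes, 2 CHR cores and no E2F core. Rrm1 held 2 CCAAT boxes, 1 E2F core and no CHR core. Cdk4 held none of the letters searched, and this start of Cdkn2c held 1 E2F core. RefSeq gives Cdkn2c another start further downstream (chr4:109665373-109665622, minus strand), whose promoter held none of the letters searched. Levels were given on another build, and which start the measured Cdkn2c mRNA uses was not tested. The Cdkn2c promoter shown may therefore not be that of the mRNA whose level differed.

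Over the whole set, the share of promoters with each motif is given by role as a description, with no test. A CCAAT box was found in 12 of 13 promoters of the mitotic genes (92.3%), in 9 of 10 of the replication genes (90.0%) and in 3 of 12 of the G1 genes (25.0%), beside 33.8% of the 32851 promoters of the same length in the table. The CHR core was found in 6 mitotic promoters (46.2%), 1 replication promoter and 1 G1 promoter, beside 15.99% of all promoters, and the 6 mitotic promoters, of Mki67, Top2a, Cdk1, Ccnb2, Kif11 and Cdc20, all held a CCAAT box as well. That combination stood in 5.55% of all promoters. An E2F core was found in 6 replication promoters (60%), 3 mitotic promoters (23.1%) and 3 G1 promoters (25.0%), beside 7.89% of all promoters. A match is a run of letters only and was not tested as a binding site.

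**Figure D1:**
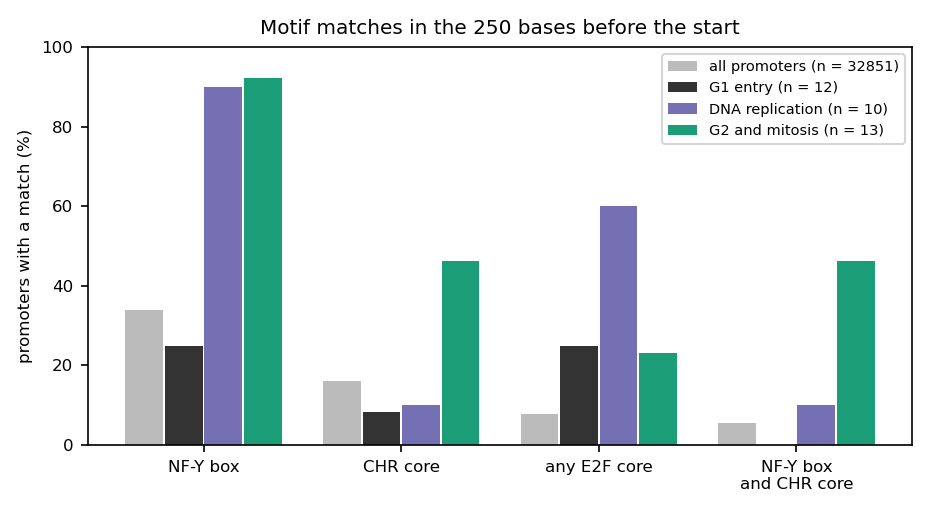
Share of promoters with at least 1 match in the 250 bases before the start (percent, y axis) for CCAAT, the CHR core TTTGAA, any of 4 E2F cores, and CCAAT together with the CHR core. Grey bars show all 32851 promoters and coloured bars the promoters of each role group. Bars for CCAAT reach 90.0% and 92.3% for replication and mitotic genes, and the combined motif is highest in the mitotic group (46.2%).

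Levels were given by the authors as RPKM, the reads on an mRNA per kilobase of its length and scaled to library size, so that levels of different genes can be set side by side. The depth was read back from the steps between low values and came to 24.5, 25.6 and 26.7 M in the ULA libraries of brains 1 to 3, and to 26.6, 19.7 and 29.6 M in the DLA libraries. Astrocyte markers summed to 10402 to 11972 RPKM in every library, far above those of any other cell type examined. Of 8 markers of oligodendrocyte precursors, a dividing cell type of the cortex, 6 were under 1 RPKM in every library, with Pdgfra at 0.07 or less, Gpr17 at 0.03 or less and Sox10 at 0.68 or less. The list summed to 85.4 to 96.9 RPKM in ULAs and to 97.3 to 134 in DLAs, nearly all of it Olig1 and Olig2, which other glia can also express. The 8 microglial markers summed to 14.12, 13.95 and 14.86 RPKM in ULAs and to 12.03, 9.09 and 12.25 in DLAs, without overlap. Most of each sum was P2ry12, at 12.07, 11.63 and 12.6 RPKM in ULAs and 10.08, 7.76 and 10.22 in DLAs. The other 7 were under 1 RPKM in every library. P2ry12 had a log2 fold change of 0.35 that did not pass (adjusted p 0.199 by limma). Summed neuronal markers were at 4.69 to 6.87 RPKM, endothelial markers at 0.44 to 3.12 and pericyte markers at 11.2 to 21.9. Of the pericyte markers, Rgs5 was higher in ULAs, at 1.98, 2.06 and 2.70 RPKM against 1.01, 0.75 and 0.93 in DLAs. Its log2 fold change was 0.77 with an adjusted p of 0.0455 by limma. That call held in 4 of 10 alternative analyses, with adjusted p from 0.0274 to 0.400. Pdgfrb, the highest pericyte marker, overlapped between the layers, at 19.84, 12.76 and 12.21 RPKM in ULAs and 16.91, 14.71 and 10.31 in DLAs. The 7 oligodendrocyte markers summed to 89.3, 86.6 and 175 RPKM in ULAs and to 174, 200 and 272 in DLAs. All 6 tested members were higher in DLAs by fold change, 5 of them at an adjusted p under 0.05 by limma. The 4 erythroid markers summed to 0.94 to 1.79 RPKM in ULAs and to 15.4, 16.02 and 76.7 in DLAs. All 4 were higher in DLAs by fold change, 3 of them at that threshold. Of all rows tested, 0.914% passed as higher in DLAs. The part of these other cells in the differences given next was not tested, and in bulk libraries fewer cells of a type and less RNA per cell cannot be told apart.

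Within the set, the G1 genes made up most of the signal and the replication genes were low in both layers. The mitotic genes of the set, Ccna2 aside, were under 1 RPKM in every library. This holds for the listed genes only. Of 23 other mitotic genes, 10 had a mean of at least 1 RPKM, and that list summed to 70.7 to 81.5 RPKM. Summed over its 14 genes, the G1 group stood at 202, 196 and 200 RPKM in ULAs and at 174, 178 and 170 in DLAs. The 10 replication genes summed to 25.2, 24.4 and 25.0 RPKM in ULAs and to 24.6, 27.6 and 23.9 in DLAs. The 15 mitotic genes summed to 3.59, 4.38 and 4.43 RPKM in ULAs and to 3.71, 3.83 and 4.24 in DLAs. The G1 sums did not overlap between the layers, with ULAs above, whereas the sums of the other groups did overlap. Without Rb1, which did not pass the test given further on, the G1 sums did overlap, at 146, 139 and 142 RPKM in ULAs and 128, 146 and 122 in DLAs. Much of each G1 sum came from Cdk4, Rb1 and Ccnd3, the only genes of the set with a mean level above 20 RPKM.

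**Figure D2:**
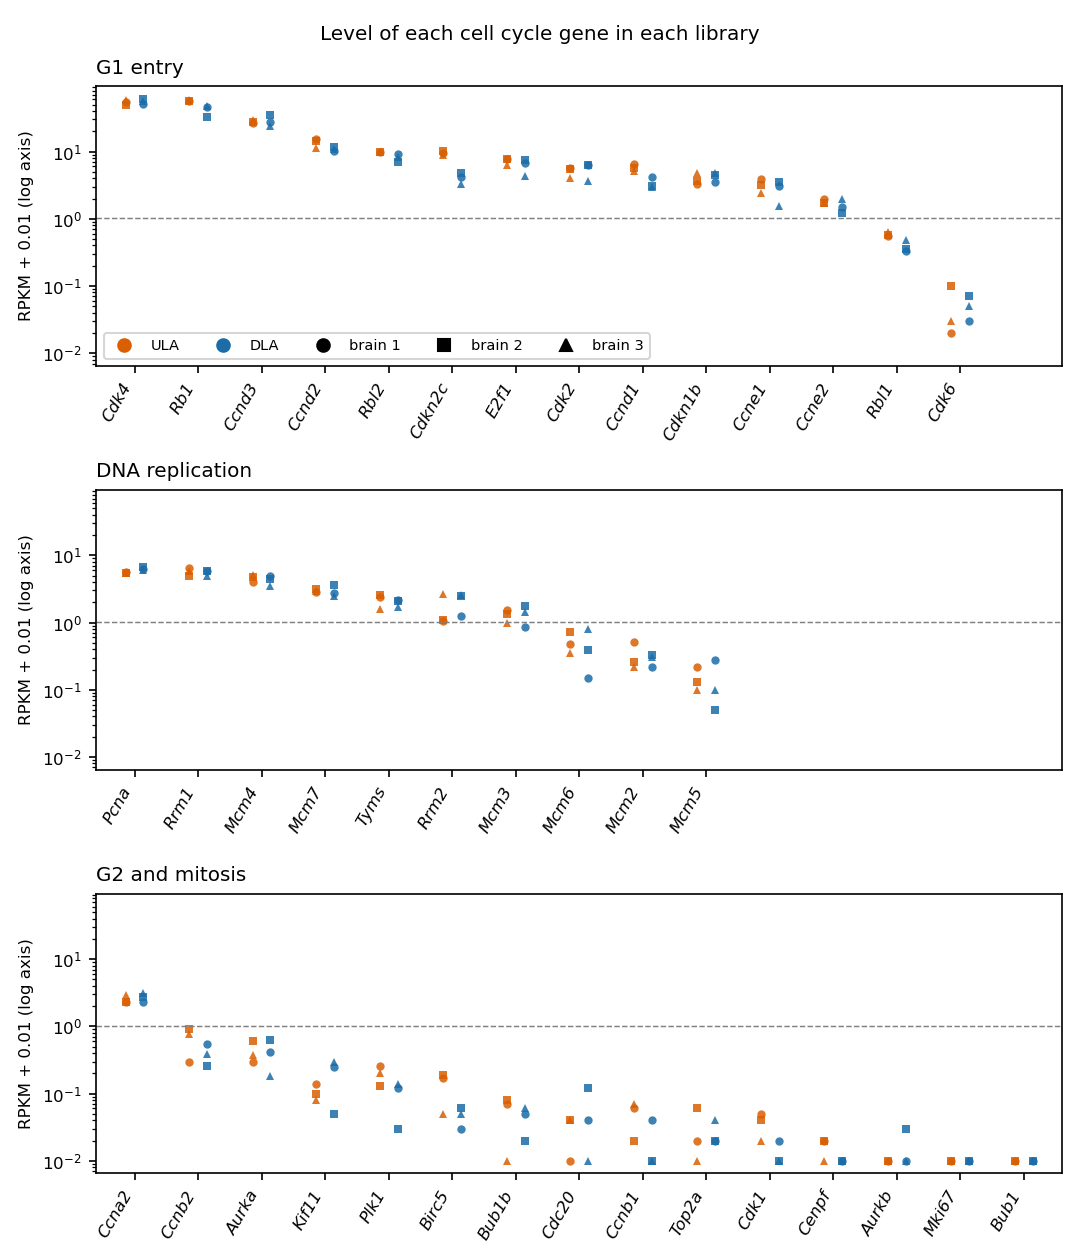
Level of all 39 genes in each of the 6 libraries, as RPKM + 0.01 on a log axis, with 1 panel per role group and genes ordered by mean level. Orange points are ULAs, blue points DLAs, the marker shape gives the brain, and the dashed line marks 1 RPKM. Of the mitotic genes, 14 of 15 lie under the line in every library, and Cdk4, Rb1 and Ccnd3 lead the G1 panel.

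Mki67, whose protein Ki-67 coats mitotic chromosomes and is the standard label of cycling cells, was listed at 0.00 RPKM in all 6 libraries. Because values were cut to 2 decimals and this mRNA is long, that allows up to 2 or 3 reads per library and at most 13 reads in 152.6 M. Bub1, a kinase of the spindle checkpoint, was also listed at 0.00 in all 6 libraries, with at most 5 reads in total. These and the other mitotic genes except Ccna2 had means under 1 RPKM and were not tested in the main comparison. That is not to say that there was no difference between layers. In a fit with no minimum on RPKM none of those it covered passed. Of them only Plk1 had an unadjusted p under 0.05, at 0.0293 by limma (log2 fold change 0.13, ULAs higher, adjusted p 0.459).

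Cdk1, the kinase that drives entry into mitosis, was at 0.04, 0.03 and 0.01 RPKM in ULAs (brains 1 to 3, here and in what follows) and at 0.01, 0.00 and 0.00 in DLAs, on 8 reads in all. Top2a, the topoisomerase that untangles chromosomes, was at 0.01, 0.05 and 0.00 RPKM in ULAs and at 0.01, 0.01 and 0.03 in DLAs. Aurkb, a kinase of the chromosomal passenger complex, had 1 read, in the DLAs of brain 2. Counting these, 8 of the 15 mitotic genes were under 0.1 RPKM in every library, the others being Ccnb1 (a B-type cyclin and partner of Cdk1), Bub1b (a checkpoint kinase) and Cenpf (a kinetochore protein).

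Ccnb2, the other B-type cyclin of the set, was the highest of the mitotic genes that were not tested, at 0.28, 0.90 and 0.75 RPKM in ULAs and at 0.53, 0.25 and 0.38 in DLAs. Aurka, the kinase of the spindle poles, was at 0.29, 0.59 and 0.37 RPKM in ULAs and at 0.41, 0.61 and 0.17 in DLAs. Both overlapped between the layers, on 8 to 36 and 10 to 29 reads per library. Plk1 (a mitotic kinase), Birc5 (survivin, of the passenger complex), Kif11 (a spindle motor) and Cdc20 (an activator of the anaphase-promoting complex) lay between 0.00 and 0.28 RPKM and overlapped as well. Without Ccna2, the mitotic sums were 1.28, 2.08 and 1.52 RPKM in ULAs and 1.43, 1.12 and 1.08 in DLAs.

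Ccna2, cyclin A2, which serves in S phase and G2, was the exception, at 2.31, 2.30 and 2.91 RPKM in ULAs and at 2.28, 2.71 and 3.16 in DLAs. The layers overlapped, and the log2 fold change (ULA over DLA, on log2(RPKM + 1) as for all fold changes here) was −0.08 with a 95% interval of −0.40 to 0.24. The Ccna2 mRNA shares 378 exon bases, 13.4% of its length, with Exosc9, a gene of the RNA exosome on the opposite strand with a mean of 25.7 RPKM, and the kit does not mark strand. Reads of Exosc9 on the shared bases alone, if counted for both genes, would come to 3.46 RPKM of Ccna2, above its level in every library. How much of this level is Ccna2 cannot be told apart.

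For the test between the layers, rows with a mean of at least 1 RPKM over the 6 libraries were kept, 13999 in all, and fitted with limma with brain and layer as terms. Of the 39 genes, 20 were tested, namely 12 G1 genes, 7 replication genes and Ccna2, and 19 lay under the minimum. At an adjusted p under 0.05, 1.63% of all rows tested passed, 0.714% as higher in ULAs and 0.914% as higher in DLAs. Among the 20 genes, 2 passed, Cdkn2c and Ccnd1, both higher in ULAs and both acting on the Cdk4 and Cdk6 step, and none passed in the other direction. At an unadjusted p under 0.05 there were 3, with Rb1 added, all higher in ULAs, beside 16.4% of all rows, 5.64% in that direction and 10.8% in the other. The fold changes of the 20 genes had a median of 0.06, 12 of them above 0 and 8 below, and all but Cdkn2c and Ccnd1 lay within 0.5 of 0, beside a median of −0.03 over all rows.

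Cdkn2c encodes an INK4 inhibitor that binds Cdk4 and Cdk6 and blocks their pairing with D-type cyclins (mm9, chr4:109333481-109337977, minus strand, 2 exons). Its level was 9.46, 10.09 and 8.96 RPKM in ULAs and 4.11, 4.82 and 3.27 RPKM in DLAs, on 105 to 286 reads per library. Every ULA library was above every DLA library. The means were 9.50 ± 0.566 and 4.07 ± 0.776 RPKM (SD, n = 3), and the ULA level was 2.30, 2.09 and 2.74 times the DLA level in the 3 brains. The log2 fold change was 1.06 ± 0.13 (SE; 95% interval 0.77 to 1.35) with an adjusted p of 0.00402 by limma. The call held in 10 of 11 alternative analyses and was lost with no minimum on RPKM, where the adjusted p was 0.30.

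Ccnd1 encodes cyclin D1, the partner that activates Cdk4 and Cdk6 and thus acts against the inhibitor (mm9, chr7:152115836-152125830, minus strand, 5 exons). It was at 6.57, 5.68 and 5.15 RPKM in ULAs and at 4.18, 3.05 and 2.99 in DLAs, on 228 to 610 reads. The groups did not overlap, and the ULA level was 1.57, 1.86 and 1.72 times the DLA level. The means were 5.80 ± 0.718 and 3.41 ± 0.670 RPKM (SD, n = 3), the log2 fold change was 0.63 ± 0.13 (SE; 95% interval 0.34 to 0.93) and the adjusted p by limma was 0.0484. This call was close to the threshold and held in 3 of the 10 alternatives that could test it, with adjusted p from 0.0203 to 0.367. It was lost without brain 1 (0.142) and without brain 2 (0.0942), while the fold change stayed between 0.55 and 0.76 in all 10.

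Rb1, the retinoblastoma protein that the D-type cyclin kinases phosphorylate, was at 56.04, 57.40 and 58.44 RPKM in ULAs and at 45.36, 32.34 and 47.75 in DLAs. All ULA values were above all DLA values, and the lowest DLA value came from brain 2, the library of least depth. The log2 fold change was 0.46 ± 0.12 (SE; 95% interval 0.19 to 0.74) with an adjusted p of 0.104, so it did not pass. It passed only with brain 3 left out (0.55, adjusted p 0.00575 by limma), and it was 0.29 without brain 2. The ULA over DLA ratio rose with mRNA length across rows in each brain (Spearman's rho of 0.21, 0.37 and 0.10, rows not being independent), and with a correction for length the fold changes were 0.35 for Rb1, 0.55 for Ccnd1 (adjusted p 0.0896 by limma) and 1.14 for Cdkn2c.

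**Figure D3:**
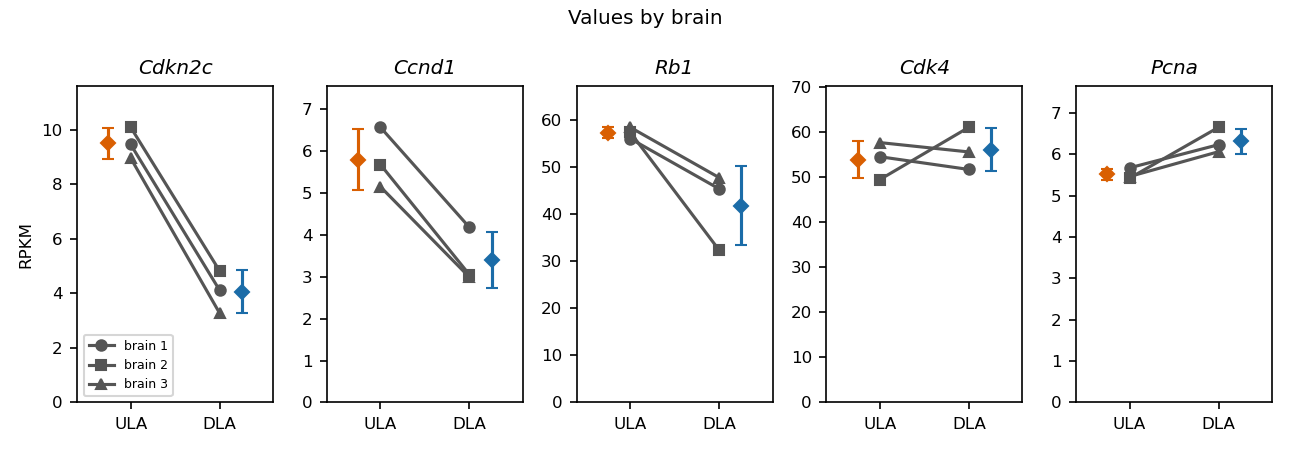
RPKM of Cdkn2c, Ccnd1, Rb1, Cdk4 and Pcna in the ULAs and DLAs of each brain, with lines joining the libraries of a brain and diamonds with bars giving the mean ± SD of each layer (n = 3). Lines fall from ULA to DLA in all 3 brains for Cdkn2c, Ccnd1 and Rb1 and rise in all 3 for Pcna, and those of Cdk4 cross.

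Cdk4, the kinase of the D-type cyclins, had the highest mean level of the set, with 54.56, 49.49 and 57.70 RPKM in ULAs and 51.73, 61.10 and 55.62 in DLAs. Its values overlapped, and the 95% interval of its log2 fold change (−0.06) ran from −0.30 to 0.19. Ccnd3, cyclin D3, was at 27.03, 27.26 and 29.01 RPKM in ULAs and at 27.65, 34.91 and 24.38 in DLAs. It too overlapped between the layers, at −0.05 with an interval of −0.33 to 0.24, and it shares 358 exon bases with Bysl on the opposite strand.

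Ccnd2, cyclin D2, was at 11.15 to 15.13 RPKM in ULAs and at 10.11 to 11.59 in DLAs, with a log2 fold change of 0.28 that did not pass (adjusted p 0.328 by limma). Cdk6, the relative of Cdk4, was at 0.01 to 0.09 RPKM throughout, so that in these libraries nearly all RNA for the D-type cyclin kinases was Cdk4. Of the D-type cyclins, Ccnd3 was the highest in level in every library, Ccnd2 the next and Ccnd1 the lowest.

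The relatives of Rb1 were lower in level. Rbl2 (p130) was at 9.79, 9.67 and 9.82 RPKM in ULAs and at 9.27, 7.03 and 8.35 in DLAs, which did not overlap, but its log2 fold change of 0.23 did not pass (adjusted p 0.394 by limma). Rbl2 shares 346 exon bases with Aktip on the opposite strand (mean 33.0 RPKM), whose reads there, if counted for both genes, would come to 2.33 RPKM of Rbl2. Rbl1 (p107), which was too low to be tested, was at 0.54, 0.56 and 0.62 RPKM in ULAs and at 0.32, 0.35 and 0.48 in DLAs, again with all ULA values above. The groups did not overlap in 15.9% of all rows tested and in 5 of the 20 genes. ULAs were above in 6.59% of rows and in 4 of the 20 genes, and DLAs were above in 9.27% of rows and in 1 of the 20.

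The later G1 genes gave no call. E2f1, an E2F factor that turns on replication genes, was at 6.22 to 7.80 RPKM in ULAs and at 4.26 to 7.38 in DLAs (log2 fold change 0.23, adjusted p 0.433 by limma). Cdk2 and Ccne1 (cyclin E1), which act together at the start of S phase, had log2 fold changes of −0.07 and 0.19, and Cdkn1b, the KIP inhibitor of that pair, had −0.09. Ccne2, cyclin E2, was at 1.21 to 1.99 RPKM with a log2 fold change of 0.15. Of its length, 53.9% lies over exons of Ints8 on the opposite strand, so reads of these genes cannot be told apart. Reads of Ints8 on the shared bases, if counted for both genes, would come to 5.80 RPKM of Ccne2, above its level in every library.

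**Figure D4:**
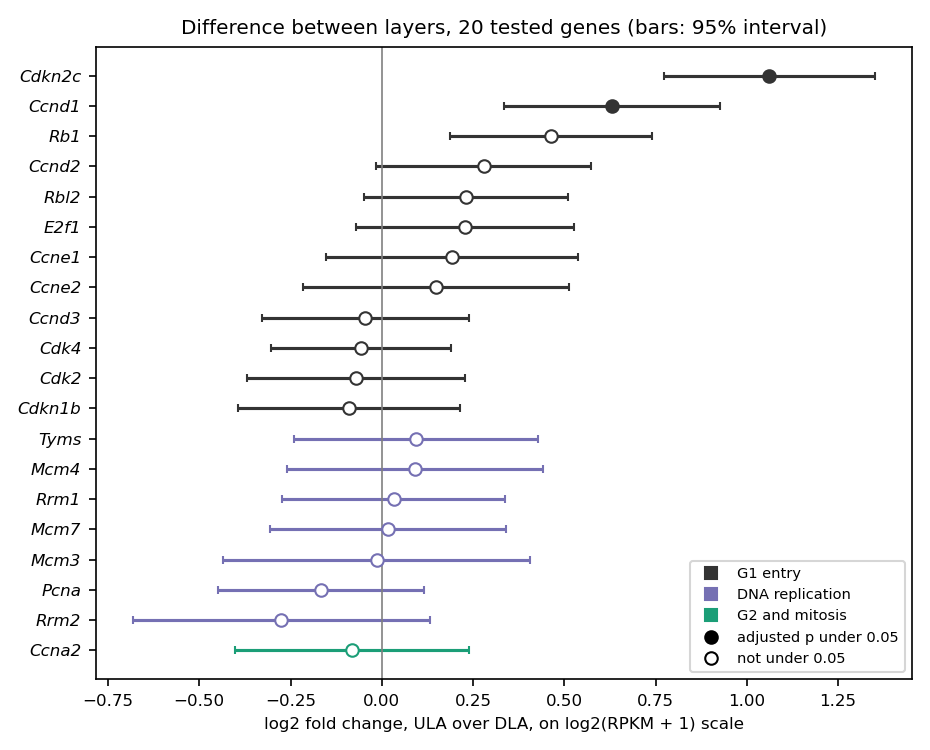
Log2 fold change of ULA over DLA on the log2(RPKM + 1) scale (x axis) for the 20 tested genes, ordered within role groups, with 95% intervals from limma as bars. Filled points, Cdkn2c (1.06) and Ccnd1 (0.63), had an adjusted p under 0.05 and open points did not. Intervals of the replication genes and of Ccna2 all include 0.

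None of the 7 replication genes tested passed, and their log2 fold changes ran from −0.28 to 0.09. Pcna, the sliding clamp of the DNA polymerases, was at 5.67, 5.42 and 5.46 RPKM in ULAs and at 6.23, 6.65 and 6.06 in DLAs. It was the only tested gene of the set with every DLA library above every ULA library, yet its log2 fold change was −0.17 with an interval of −0.45 to 0.12 (adjusted p 0.549 by limma). Rrm2, the small subunit of ribonucleotide reductase, whose supply is tied to S phase, was at 1.05, 1.07 and 2.62 RPKM in ULAs and at 1.23, 2.44 and 2.55 in DLAs. It had the most negative fold change of the set, −0.28, but both layers spanned much of the same range (adjusted p 0.485 by limma). The value rested on brain 2, without which it was −0.047 and that of Pcna, at −0.12, was the more negative. Without brain 3 it was −0.43.

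Rrm1, the large subunit of the same enzyme, was at 6.39, 4.96 and 5.82 RPKM in ULAs and at 5.81, 5.86 and 5.0 in DLAs, above Rrm2 in every library. Mcm4, a subunit of the MCM helicase that opens the DNA at replication forks, was at 4.05, 4.78 and 5.01 RPKM in ULAs and at 4.99, 4.43 and 3.46 in DLAs. Both overlapped between layers. The other helicase subunits were at 2.51 to 3.67 RPKM for Mcm7 and 0.84 to 1.76 for Mcm3, and under 1 RPKM in every library for Mcm2, Mcm5 and Mcm6, so the subunits of this 6-part ring were not at equal RNA levels. Tyms, the thymidylate synthase, was at 1.58 to 2.55 RPKM and overlapped as well.

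The other cell cycle genes, 113 chosen by role and 112 of them in the table, gave no call among the 81 tested, where 1.63% of all rows tested passed. Their log2 fold changes ran from −0.44 to 0.43 with a median of −0.05, and 9 had an unadjusted p under 0.05, 1 higher in ULAs and 8 higher in DLAs, beside 5.64% and 10.8% of all rows. Cdkn1a, the inhibitor p21, was the only tested gene among the other CDK inhibitors and was at 0.64, 0.69 and 0.82 RPKM in ULAs and at 1.03, 1.73 and 1.26 in DLAs. These did not overlap, in the direction opposite to Cdkn2c, but the log2 fold change of −0.44 did not pass (adjusted p 0.241 by limma).

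The gene of highest level in each of these lists is given next. Skp1a, the adaptor of the SCF ubiquitin ligases, was at 51.67, 54.29 and 65.57 RPKM in ULAs and 61.12, 63.18 and 87.44 in DLAs, with a log2 fold change of −0.29. Ccnh, a cyclin of the CDK-activating kinase and of transcription factor IIH, was at 46.94 to 58.37 RPKM in ULAs and 51.84 to 61.37 in DLAs, with a log2 fold change of −0.05. Bub3, a checkpoint protein and the highest of the other mitotic genes, was at 32.32 to 37.54 RPKM in ULAs and 36.28 to 43.19 in DLAs, while its partner Bub1 was listed at 0.00. E2f5, Orc5 (of the origin recognition complex) and Rpa3 (of the single-strand binding complex) led the other lists, with log2 fold changes of −0.24, 0.05 and −0.26, and none of these genes passed the test.

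**Figure D5:**
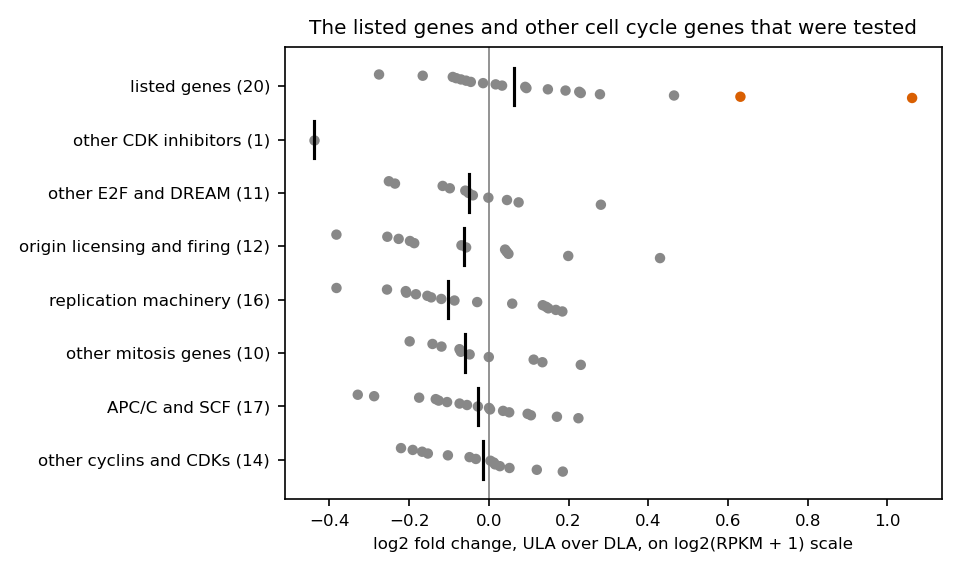
Log2 fold change of ULA over DLA on the log2(RPKM + 1) scale (x axis) for the 20 tested genes of the set and the 81 other cell cycle genes, by list, with the number tested in brackets. Grey points did not pass, orange points had an adjusted p under 0.05, and black bars are medians. The orange points stand for Ccnd1 (0.63) and Cdkn2c (1.06), and all 81 other genes lie within 0.5 of 0.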

How the data were processed

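RNA of sorted astrocytes was sequenced as 36-base single reads after SMART-Seq v4 amplification, in 3 ULA and 3 DLA libraries from 3 brains. The authors deposited RPKM values, cut to 2 decimals, for 43383 rows. The submitters' processing notes name bcl2fastq 1.8.4, CASAVA 1.8.2 and mm9, while the aligner and counter are not given in the sources used here. Depth was read back from value steps in rows of up to 500 bases, where at least 99.9% of values came out as whole reads. The 13999 rows averaging 1 RPKM or more were fitted on log2(RPKM + 1) by limma 3.58.1 (R 4.3.3; functions lmFit and, with its trend option, eBayes). The model held layer plus brain, tests were 2-sided, and p was adjusted over all of these rows by the Benjamini-Hochberg method. An adjusted p under 0.05 was a call. Low genes change more than this log2 scale shows. An exact permutation test cannot go below 0.1 with 3 libraries per layer, or 0.25 with pairs kept, so none was used. Same-numbered libraries deviated together from their layer means (r of 0.42, 0.33 and 0.34, against −0.20 to −0.16 between numbers), and the design text counts 3 brains. The labels do not say that a number marks a brain.

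Promoters and motifs were read with Python 3.11.15, pandas 2.3.3 and numpy 2.4.6, and figures drawn with matplotlib 3.10.9. The genes and lists were chosen with earlier results of these data known. Every gene of the set is named, with all 6 values for those that passed in any analysis of 6 libraries, the highest 3 in level and largest 2 in fold change of each role group, and the usual proliferation markers, besides the highest gene of each other list. Rbl1 and Rbl2 were singled out after their values were seen. The alternatives were no brain term, a pseudocount of 0.1, no minimum, a minimum of 5 RPKM, centring on medians, quantile normalization, no trend, leaving out each brain, and a loess correction for mRNA length. The fit was tested on simulated data.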

Additional observations from a re-analysis of the deposited data

How the results depend on the processing

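The depth limits the mitotic genes, most of which rest on few reads, and 3 brains limit the precision of the others, with a median 95% interval of ± 0.30 on the log2 scale. The number of genes of the set called was 2. It changed to 1 (Cdkn2c) without the pairing of libraries by brain (no replicate block), with quantile normalization, no trend or the length correction. It was also 1 with a minimum of 5 RPKM, where Ccnd1 was not tested. It was 0 with no minimum, where 4 genes (Cdkn2c, Ccnd1, Rb1 and Plk1) had an unadjusted p under 0.05 by limma. It was 1 to 3 with a brain left out. Over all rows, 228 calls changed to 41 without the block (23 higher in ULAs and 18 in DLAs), to 0 with no minimum (2799 at an unadjusted p under 0.05 by limma), to 144 with no trend and to 143 with the length correction, and ranged from 230 to 1113 with a brain left out, the highest without brain 3. Quantile normalization moved the split of calls from 100 higher in ULAs and 128 in DLAs to 138 and 103. None of the other cell cycle genes was called in any alternative, of 81 in the main comparison, with 9 at an unadjusted p under 0.05 by limma.

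The direction changed for genes near 0 only, none of them called in any alternative. Quantile normalization gave log2 fold changes of 0.043 for Ccnd3 and 0.050 for Cdk4, and the length correction gave 0.015 for Cdk4 and −0.060 for Rrm1. With a brain left out, Ccnd3 ran from −0.19 to 0.11, Cdk4 from −0.12 to 0.064, Mcm3 from −0.25 to 0.12, Mcm4 from −0.078 to 0.26, Mcm7 from −0.054 to 0.10 and Rrm1 from −0.042 to 0.15. For single genes of the set, 189 of 210 alternative values kept their direction and side of the threshold. Most of these belong to genes that were not called in the main comparison and stayed so. Of the called genes, Cdkn2c kept its call in 10 of 11 alternatives and Ccnd1 in 3 of 10.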
